A study of Mus musculus with 12 samples.

Results

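The Sox genes encode transcription factors that bind DNA through an HMG box, a domain that fits into the minor groove and bends the helix. They are sorted into groups by the sequence of that box. In the forebrain the SoxB1 factors Sox1 and Sox2 are known for keeping progenitors undifferentiated, the SoxB2 factor Sox21 for opposing them, the SoxC factors Sox4 and Sox11 for switching on neuronal genes, the SoxE factors Sox8, Sox9 and Sox10 for glial fates, and the SoxD factors Sox5 and Sox6 for tuning the action of the SoxE and SoxC groups. All 10 of these genes were followed here, out of 18193 genes with a probe set of their own on the array. They were found as every probe set whose single gene symbol in the platform annotation was one of the 10, which gave 37 of the 45037 probe sets. Sox2ot and Sox6os, noncoding neighbours with symbols of their own, were not counted.

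Each array held RNA of stem cells sorted by flow cytometry from the adult subventricular zone, the germinal layer beside the lateral ventricles, and all mice were male and C57B6J. The groups were quiescent cells of mice that the labels do not describe as irradiated (3 arrays, replicates 1, 2 and 4), quiescent cells taken 48 h after irradiation (4 arrays, replicates 1 to 4), and activated cells (3 arrays, replicates 1 to 3). Quiescent replicate 3 and activated replicate 4, which are also among the 12 labelled samples, were not analysed here because their columns were empty. The sources used here do not give the sorting markers, the radiation dose or how many mice went into a sample, and nothing says that replicates came from separate mice, so that a p-value speaks of array-to-array spread alone, part or all of which may be technical.

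The values are intensities on a linear scale from Affymetrix MOE 430 2.0 arrays, and their number limits the precision. Between 56.6% and 59.2% of the probe sets on each array lay at or under 10, and such values are called near the lower limit. The lowest value on an array was 3 or 4. The activated arrays stood apart in their markers, while quiescent and irradiated arrays overlapped. The summed intensity of 10 astroglial and quiescent stem cell markers was 144763 to 155485 on quiescent arrays, 139120 to 153721 on irradiated arrays and 33632 to 50536 on activated arrays. That of 8 cell division and activation markers was 1761 to 4154, 888 to 2840 and 33274 to 36322 in the same order. Of 9 measured choroid plexus markers 1 fell, Ttr, which read 9992 or more on every quiescent and irradiated array and 6 on the activated arrays. Single arrays stood apart as well. Quiescent replicate 1 had the highest sum of 10 neuronal markers, 13384, where the other 9 arrays had at most 2957. The sum of 9 microglial markers was 4485 on activated replicate 3, against 186 and 490 on the other activated arrays. There Csf1r read 2520, C1qb 1424 and Cx3cr1 401. The sum was 2671 on irradiated replicate 3, against at most 342 on the other irradiated arrays. That value was almost all C1qb, at 2625, while Csf1r read 4, Cx3cr1 7, P2ry12 9 and Tyrobp 5. Aif1, Tmem119, C1qa and Itgam never exceeded 10 on any array. Fewer cells of a type and less RNA per cell cannot be told apart in such bulk samples.

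Setting activated against unirradiated quiescent cells asks which Sox transcripts separate dividing from resting stem cells. Sox4 and Sox8 rose in activated cells, no member fell and 8 did not pass, with each gene represented by its brightest probe set. A call needed a Benjamini-Hochberg adjusted p under 0.05 over all genes in limma, and 6.01% of all genes were called in this comparison, 2.89% higher and 3.12% lower. Taken by probe set, 10 of the 37 rose, all of them probe sets of Sox4, Sox8 or Sox11, and 1 fell, a probe set of Sox9, against 4.43% of all probe sets called, 2.29% higher and 2.14% lower. The median log2 difference of the 10 genes was 0.56 here and -0.20 between activated and irradiated cells, beside 0 over all genes in both. Differences were taken between means of log2(intensity + 16) and are given with their SE, activated minus quiescent unless stated. The added 16 makes the change of a gene near the lower limit look smaller than it was.

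**Figure D1:**
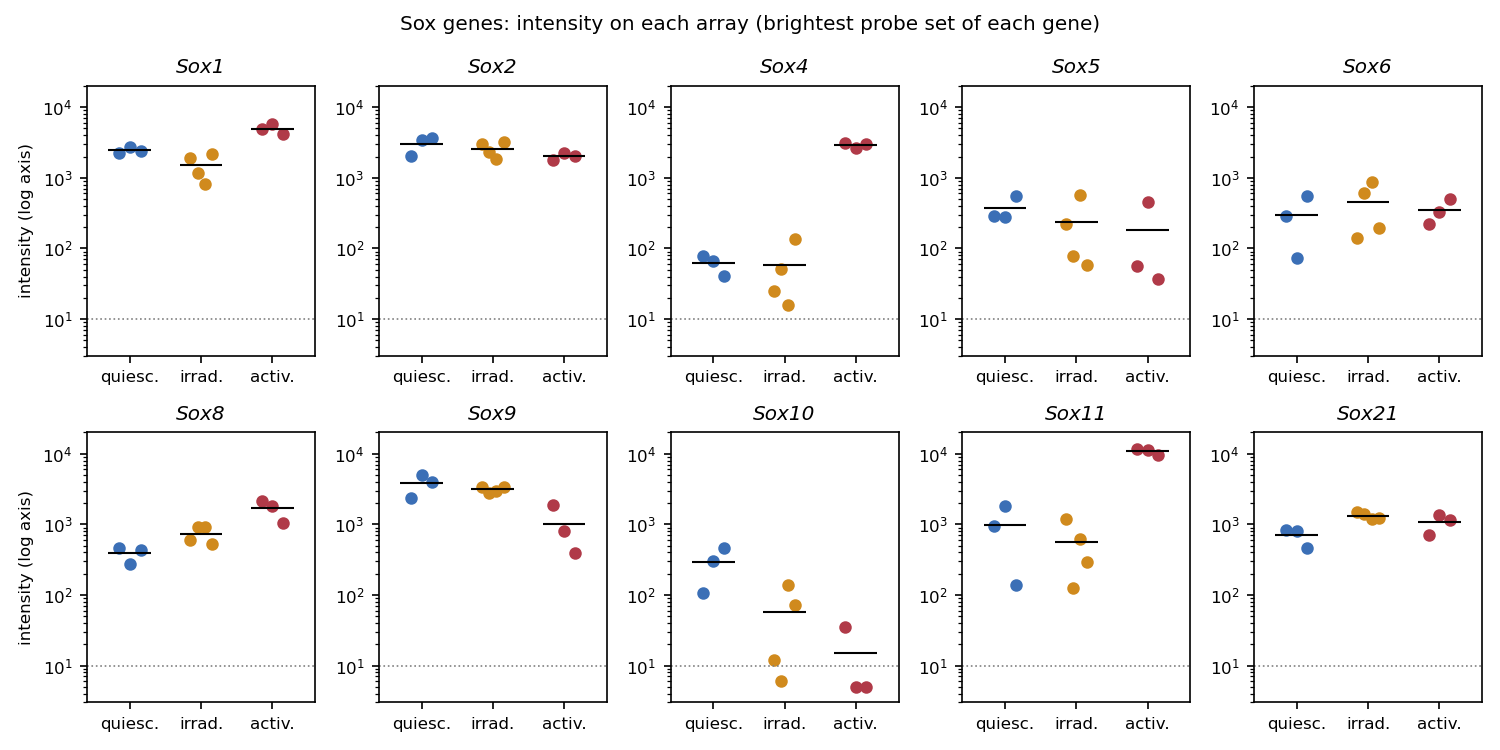
Intensity (log axis) of each Sox gene's brightest probe set on each of the 10 arrays, by state, with the group mean as a bar. The dotted line marks 10, and values at or under it are called near the lower limit. The 3 activated arrays sit far above the other 7 for Sox4 and Sox11, from 2651 to 3128 for Sox4, while Sox2 overlaps between all states.

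Among the members, the SoxC genes Sox4 and Sox11 had the widest separation. Sox4, read by the probe set 1419156_at, stood at 77, 66 and 41 on the quiescent arrays, at 25, 51, 16 and 138 on the irradiated arrays and at 3128, 2651 and 2987 on the activated arrays. The lowest activated value was thus well above the highest of the other 7. The means were 61.3 ± 18.4 (SD, n = 3), 57.5 ± 55.7 (SD, n = 4) and 2922 ± 245 (SD, n = 3). Sox4 rose by a log2 difference of 5.27 ± 0.54 over quiescent cells (adjusted p = 0.00139) and by 5.59 ± 0.51 over irradiated cells (adjusted p = 6.95e-04). Both calls held in all 21 alternative settings tried, with a highest adjusted p of 0.0335 and 0.0192.

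Sox4 has 8 probe sets on the array, and they did not all respond. Of these, 5 rose in both comparisons with activated cells. Probe set 1419157_at was at 4 on all 7 quiescent and irradiated arrays and at 92, 159 and 76 on the activated ones. Probe set 1449370_at was at 5 on the same 7 arrays and at 846, 861 and 29 on activated replicates 1 to 3. Its activated arrays disagreed, and it did not pass (log2 difference 3.95 ± 1.05, adjusted p = 0.101), although without activated replicate 3 it did. The remaining pair, 1443778_at and 1458332_x_at, read 4 on every array of every state. The call of 1433575_at against quiescent cells (5.11 ± 0.82) was lost with irradiated arrays kept out of the fit.

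Sox11, a close relative of Sox4 that is best known from newborn neurons, has 6 probe sets, and the activated arrays lay above all quiescent and irradiated arrays on each of them. The brightest, 1431225_at, read 954, 1798 and 140 on the quiescent arrays and 1179, 124, 625 and 291 on the irradiated arrays, against 11514, 11432 and 9669 on the activated arrays. The 7 arrays of resting cells thus differed among themselves by more than 10 times, while the 3 activated arrays were close together. The log2 difference was 4.06 ± 1.05 against quiescent cells, which did not pass (adjusted p = 0.0751), and 4.67 ± 0.98 against irradiated cells, a rise (adjusted p = 0.0300). The latter call depended on 7 of the 10 arrays, since the adjusted p was 0.0526 when quiescent replicate 1 was dropped, 0.0618, 0.0597 and 0.0777 for irradiated replicates 2, 3 and 4, and 0.0929, 0.102 and 0.0856 for activated replicates 1, 2 and 3.

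Of the other Sox11 probe sets, 3 had a smaller SE than the brightest and 2, 1429051_s_at and 1453002_at, a larger one. Probe set 1453125_at stood at 13, 4 and 11 in quiescent, 36, 11, 4 and 5 in irradiated and 1182, 1634 and 1545 in activated cells, a rise of 5.86 ± 0.37 over quiescent cells (adjusted p = 1.53e-04 over all probe sets). It rose by 5.72 ± 0.34 over irradiated cells. Probe sets 1429372_at and 1436790_a_at also rose over quiescent cells, by 5.82 ± 0.69 and 4.20 ± 0.61, and no single array decided these calls. Probe set 1429051_s_at rose by 5.37 ± 1.09, but its call was lost at pseudocount 1 and without any array but irradiated replicates 1 and 2 (highest adjusted p 0.122). Against irradiated cells all 6 rose, although 1429051_s_at did not pass without activated replicate 1 or 2 (highest adjusted p 0.0636), nor 1453002_at without any array but quiescent replicates 2 and 4 and irradiated replicate 2 (0.146). With the mean of its probe sets Sox11 was called in both comparisons, at 5.04 against quiescent cells (adjusted p = 6.68e-04). With the brightest probe set kept, it also passed against quiescent cells without the dimmest 50% of genes (0.0176) and with array weights (0.0435).

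The promoters of Sox4 and Sox11 are shown because these members moved together. Each line is the 250 bases before the annotated start site, 5′ to 3′ on the strand of the gene, from RefSeq on build GRCm38.p6. Capitals mark matches to the motifs searched.
Sox4, chr13:28953700-28953949, minus strand: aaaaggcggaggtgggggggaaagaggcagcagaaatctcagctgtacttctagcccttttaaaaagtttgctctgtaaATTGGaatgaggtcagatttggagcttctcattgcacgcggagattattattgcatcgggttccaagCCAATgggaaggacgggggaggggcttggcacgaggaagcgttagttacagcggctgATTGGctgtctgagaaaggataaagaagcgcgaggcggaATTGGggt
Sox11, chr12:27342719-27342968, minus strand: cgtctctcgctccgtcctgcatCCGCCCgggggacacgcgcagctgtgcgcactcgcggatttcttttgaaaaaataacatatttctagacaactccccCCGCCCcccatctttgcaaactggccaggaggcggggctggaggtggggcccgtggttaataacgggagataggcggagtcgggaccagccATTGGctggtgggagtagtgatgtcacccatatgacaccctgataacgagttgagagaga
The motifs, searched on both strands, were the Sox core motifs ACAAAG and ACAATG, the E2F motifs TTTCCCGC and TTTGGCGC, the CCAAT box CCAAT, the GC box GGGCGG and the TATA box TATAAA. None of these motifs contains another. The Sox4 promoter held 4 CCAAT boxes and none of the others. The Sox11 promoter held 1 CCAAT box and 2 GC boxes. Of the 32851 promoters of this length in the table, 33.8% held a CCAAT box, 32.7% a GC box, 16.5% ACAAAG, 10.7% ACAATG, 12.4% the TATA box and 1.3% an E2F motif. A promoter was matched for 8 of the 10 members, all but Sox9 and Sox10. Of the other 6 matched members, Sox2 held ACAAAG, Sox5 held ACAATG, 5 of the 6 Sox6 windows held one or both, and Sox1, Sox8 and Sox21 held neither. A match is a run of letters and not a shown binding site.

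**Figure D2:**
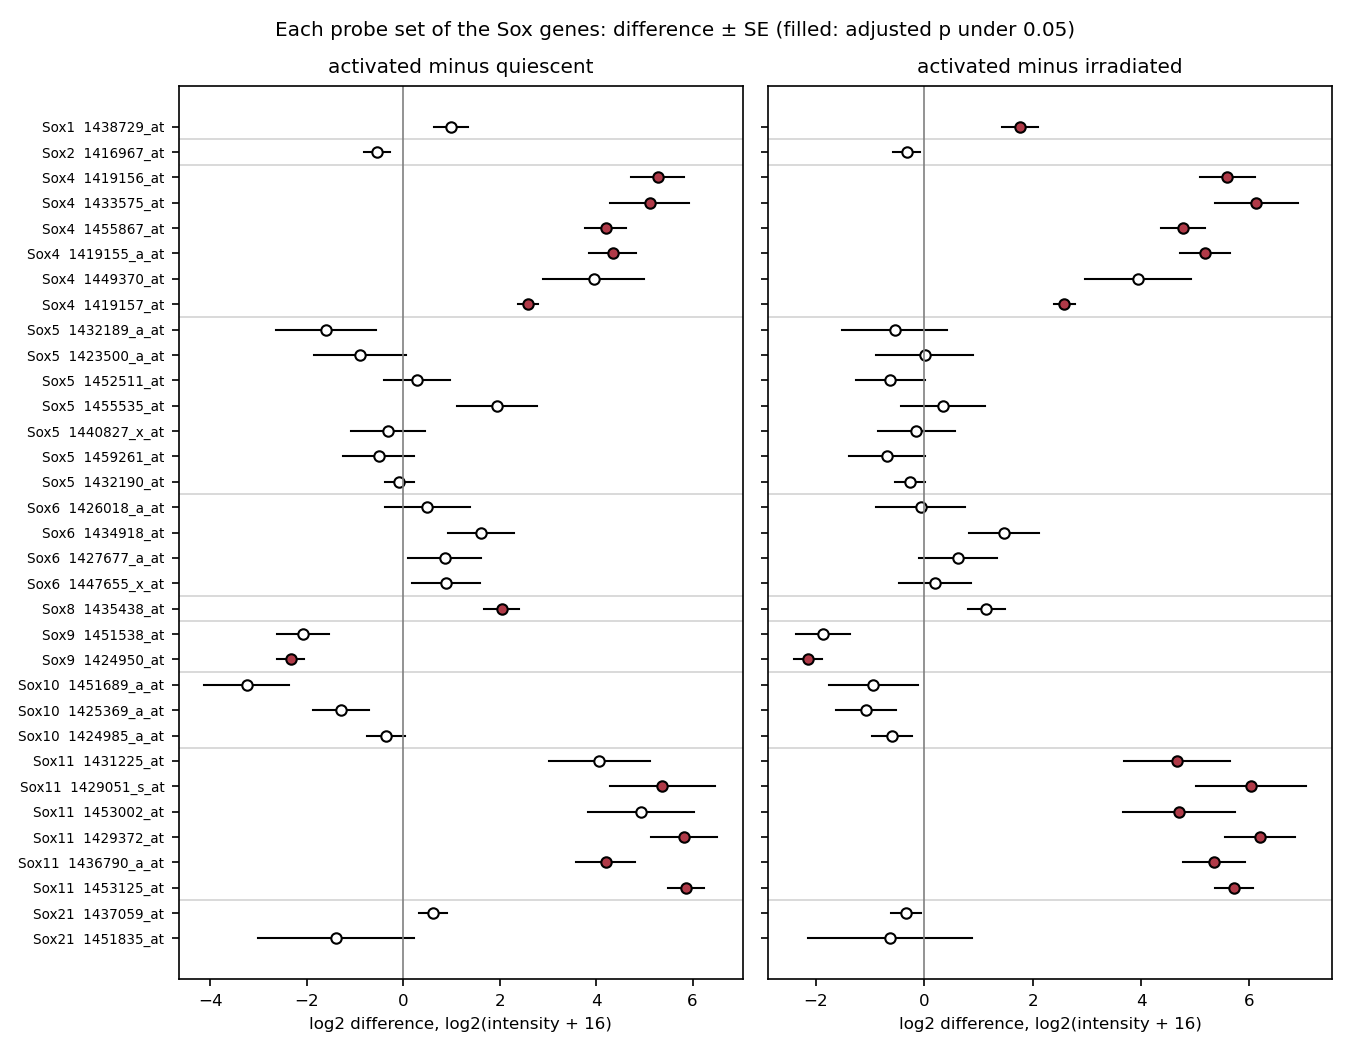
Log2 difference ± SE of each Sox probe set that exceeded 10 on at least 1 array (33 of 37), activated minus quiescent at left and activated minus irradiated at right, filled where the adjusted p over all probe sets was under 0.05. Filled points to the right are Sox4, Sox8 and Sox11 at left and Sox1, Sox4 and Sox11 at right, and the only filled point to the left in either panel is Sox9 1424950_at.

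Among the SoxE genes, Sox8 rose in activated cells and a probe set of Sox9 fell. Sox8, which is expressed in glial precursors and overlaps in function with its relatives, has 1 probe set. It read 456, 272 and 436 in quiescent cells, 592, 913, 917 and 527 in irradiated cells and 2162, 1842 and 1039 in activated cells. The 3 groups did not overlap, and their means were 388 ± 101 (SD, n = 3), 737 ± 207 (SD, n = 4) and 1681 ± 579 (SD, n = 3). Sox8 rose by 2.04 ± 0.36 in activated over quiescent cells (adjusted p = 0.0163). Against its neighbour in this order, the irradiated group, activated cells differed by 1.15 ± 0.33, which did not pass (adjusted p = 0.101). That rise missed the threshold when quiescent replicate 2 (adjusted p = 0.0557), activated replicate 1 (0.0517) or activated replicate 2 (0.0628) was dropped, or when irradiated arrays were kept out of the fit (0.0783). Activated replicate 3, the array with the highest microglial sum, had the lowest activated Sox8 value, and the Sox8 call held without it. With array weights the difference from irradiated cells passed (adjusted p = 0.0395).

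Sox9, a factor of astroglia and of the neural stem cell state itself, was read well by 2 of its 3 probe sets, while 1433889_at never exceeded 10. On 1424950_at it stood at 1578, 1925 and 2505 in quiescent cells, at 2200, 2191, 1101 and 1640 in irradiated cells and at 395, 362 and 373 in activated cells. The activated values were nearly equal, at 377 ± 16.8 (SD, n = 3), and all lay below the other 7. This probe set fell by 2.34 ± 0.28 on the log2 scale against quiescent cells and by 2.14 ± 0.26 against irradiated cells (adjusted p = 0.00378 and 0.00376 over all probe sets), and no single array ended either call.

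The brighter Sox9 probe set, 1451538_at, represented the gene in the fit over genes. It read 2333, 5053 and 4004 in quiescent cells, 3403, 2779, 2974 and 3357 in irradiated cells and 1883, 807 and 391 in activated cells, where replicate 1 lay close to the lowest quiescent array. The groups again did not overlap, but the spread among activated arrays was wide, and the log2 differences of -2.08 ± 0.53 and -1.87 ± 0.50 did not pass (adjusted p = 0.0750 and 0.0774). Without activated replicate 1 both passed (adjusted p = 0.0141 and 0.0147). They also passed with the mean of the probe sets, where the log2 difference from quiescent cells was -1.49 (adjusted p = 0.00706).

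Sox10, the SoxE factor that the oligodendrocyte lineage depends on, was dim. On its brightest probe set, 1451689_a_at, it read 108, 307 and 464 in quiescent cells, 12, 6, 139 and 73 in irradiated cells and 35, 5 and 5 in activated cells. Quiescent and activated arrays did not overlap, while irradiated arrays spanned both. The log2 difference between activated and quiescent cells was -3.25 ± 0.87 and did not pass (adjusted p = 0.0891), but it did without the dimmest 50% of genes (0.0255). On the other 2 probe sets it was -1.29 ± 0.59 and -0.36 ± 0.39, with no call. Markers of myelinating oligodendrocytes were also lower in activated cells. None of 9 measured was near the lower limit throughout, and 5 of the 9 fell between quiescent and activated cells, beside 3.12% of all genes. Their summed intensity was 20536 to 29210 on quiescent arrays, 16807 to 28950 on irradiated arrays and 1761 to 5187 on activated arrays. On irradiated replicates 1 and 2, where Sox10 read 12 and 6, it was 16807 and 21565. The sum of 9 oligodendrocyte precursor markers was 1711 to 2884, 1423 to 2238 and 816 to 1149 in the same order of groups. Only Olig1 of these 9 fell between quiescent and activated cells, and their median log2 difference was 0. Olig2 overlapped between quiescent and activated cells, C1ql1 read 5 on the quiescent arrays and 232, 14 and 5 on the activated arrays, and Gpr17, Lhfpl3 and Tnr never exceeded 10. The part of such cells in the Sox10 values was not tested.

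The SoxB genes were bright in all states. Sox2, the factor that defines neural stem cells most widely, has 1 probe set. It read 2068, 3420 and 3625 in quiescent cells, 3009, 2300, 1870 and 3197 in irradiated cells and 1802, 2260 and 2031 in activated cells. All states overlapped. The log2 difference between activated and quiescent cells was -0.54 ± 0.27 with a 95% interval, not adjusted for the number of genes, from -1.18 to 0.10 (adjusted p = 0.422). Against irradiated cells it was -0.32 ± 0.25 (adjusted p = 0.626).

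Sox1, its relative in neural progenitors, separated by state. Probe set 1438729_at read 2266, 2755 and 2374 in quiescent cells, 1885, 1177, 827 and 2209 in irradiated cells and 4865, 5760 and 4111 in activated cells. No 2 of the 3 states overlapped. Activated cells were higher than irradiated cells, a rise of 1.77 ± 0.33 (adjusted p = 0.0187). The difference between activated and quiescent cells, 0.98 ± 0.35, did not pass (adjusted p = 0.211). The Sox1 rise missed the threshold when irradiated replicate 2 (adjusted p = 0.0520), activated replicate 1 (0.0613) or activated replicate 2 (0.0762) was dropped, or when quiescent arrays were kept out of the fit (0.0696). The second Sox1 probe set, 1422205_at, read 4 on every array.

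Sox21, which represses genes that Sox1 and Sox2 activate, had 2 probe sets that disagreed. On 1437059_at it read 827, 805 and 458 in quiescent, 1480, 1394, 1190 and 1249 in irradiated and 712, 1361 and 1166 in activated cells. On 1451835_at it read 305, 1599 and 713, then 8, 636, 2617 and 804, then 273, 414 and 152. The first had a log2 difference of 0.62 ± 0.29 between activated and quiescent cells and the second one of -1.39 ± 1.62, neither of which passed. The second varied widely within a state, from 8 to 2617 among irradiated arrays.

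The SoxD genes were uneven from array to array. Sox5, which has 7 probe sets, read 284, 283 and 544 in quiescent, 222, 79, 580 and 58 in irradiated and 56, 457 and 37 in activated cells on its brightest, 1432189_a_at. The log2 difference between activated and quiescent cells was -1.60 ± 1.04 (adjusted p = 0.616), and over the 7 probe sets it ran from -1.60 to 1.94 with none called. Sox6, with 4 probe sets, read 285, 74 and 548, then 139, 604, 877 and 194, then 222, 328 and 507 on 1426018_a_at. Its difference was 0.50 ± 0.88 (adjusted p = 1.00), and none of its 4 probe sets passed in any comparison. Differences of this size could not be separated from the spread between arrays.

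**Figure D3:**
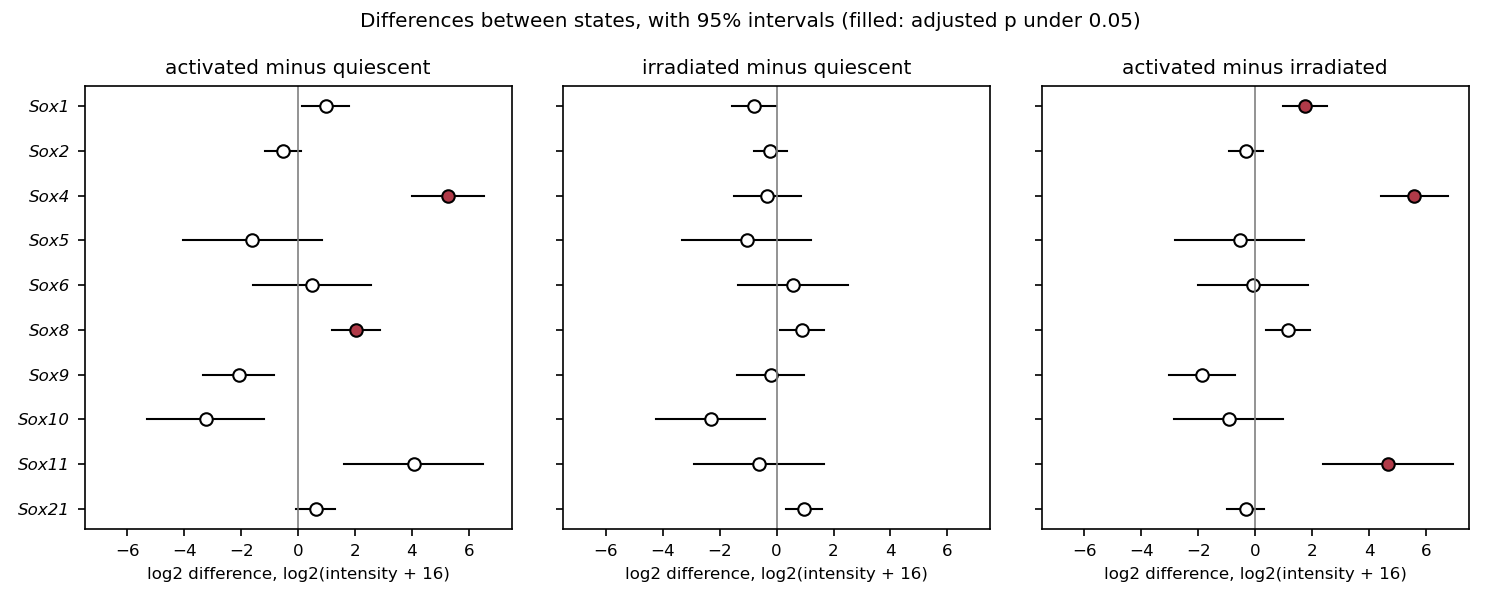
Log2 difference of each Sox gene's brightest probe set with its 95% interval (not adjusted for the number of genes) in the 3 comparisons, filled where the adjusted p over all genes was under 0.05. Sox4 is filled at 5.27 and 5.59, Sox8 in the first panel, Sox1 and Sox11 in the third, and no gene in the middle panel.

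The comparison of irradiated with unirradiated quiescent cells asks what differs 48 h after irradiation, and none of the 10 Sox genes and none of the 37 probe sets passed in limma. Only 0.011% of all genes, 2 in number, and 0.0155% of all probe sets passed. At an unadjusted p under 0.05 there were 4 of the 10 genes, 4 of the 37 probe sets and 3.96% of all genes. The genes were Sox1 (log2 difference, irradiated minus quiescent, -0.78 ± 0.33), Sox8 (0.89 ± 0.33), Sox10 (-2.31 ± 0.82) and Sox21 (0.96 ± 0.27), the last with the smallest p (0.00932). All 4 had an adjusted p of 0.970, and no alternative tried brought any member under 0.05. Sox1, Sox8 and Sox21 had arrays that did not overlap between these states, where 2.97% of all genes did so. For Sox21 the second probe set did not bear this out, with values of irradiated cells on both sides of the quiescent ones. For Sox2 the log2 difference was -0.22 ± 0.25, with a 95% interval from -0.81 to 0.38, and for Sox9 it was -0.21 ± 0.50.

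Activated cells were also set against irradiated quiescent cells, which shows whether a difference from resting cells was there in a second set of resting samples. This comparison shares the activated arrays with the first. Sox1, Sox4 and Sox11 rose, no gene fell and 7 did not pass, with 7.08% of all genes called, 3.4% higher and 3.68% lower. The count was 1 without irradiated replicate 2 and 1 without activated replicate 2. By probe set, 12 of 37 rose and 1 fell, against 5.14% of all probe sets called, 2.68% higher and 2.45% lower. The activated and irradiated arrays did not overlap for 5 of the 10 genes, and the activated and quiescent arrays for 6, where 16.2% and 19.3% of all genes did so.

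Several markers of neuroblasts, the migrating neuronal precursors in which Sox4 and Sox11 are abundant, were higher on the same arrays as these genes, while others were not. The summed intensity of 10 neuroblast markers was 155 to 1044 on quiescent arrays, 171 to 1021 on irradiated arrays and 13187 to 21134 on activated arrays. Of the 10, 5 rose in activated over quiescent cells, where 2.89% of all genes rose. They were Dlx1, Dlx2, Cd24a, Tubb3 and Elavl4, the first 4 of which made up most of the sum. Dlx2 alone read 6848, 7345 and 6052 on the activated arrays. The other 5 markers did not pass. Among these, Dcx, a microtubule protein of young neurons, read 489, 744 and 121 on the activated arrays and 5 on 6 of the other 7. Its adjusted p was 0.0508, just over the threshold, and ran from 0.0204 to 0.155 when single arrays were left out. Dcx passed with the mean of its probe sets (7.51e-05) but not with the replicate number as a block (0.135). Dlx5 read 7, 246 and 208 on the activated arrays. Stmn2 read 6, 8 and 89 there, Nrxn3 had its highest value, 250, on an irradiated array, and Gad1 was near the lower limit on all activated arrays and read 675 on quiescent replicate 1. The part of neuroblasts in the activated sort in the Sox4 and Sox11 values was not tested.

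**Figure D4:**
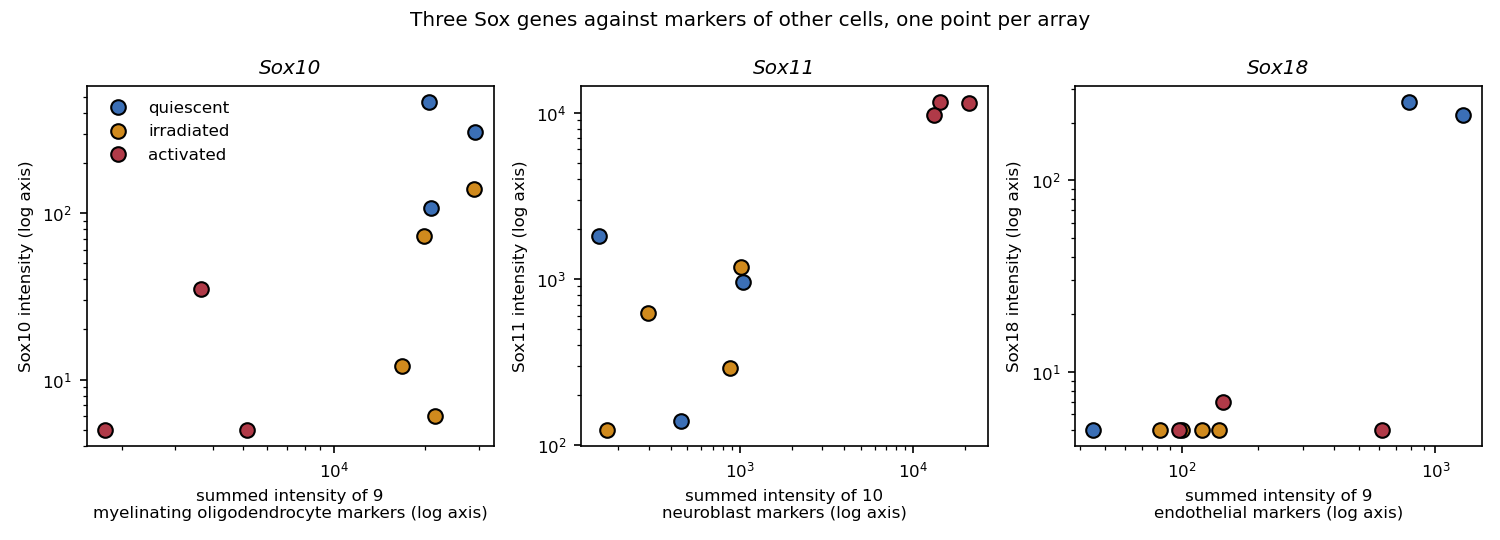
Intensity of Sox10, Sox11 and Sox18 (log axes) against the summed intensity of markers of myelinating oligodendrocytes, neuroblasts and endothelium, 1 point per array, coloured by state. Sox11 and the summed neuroblast markers are both highest on the 3 activated arrays, and Sox18 is above 10 only on the quiescent arrays with endothelial sums of 790 and 1289.

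The rest of the family gave no calls in limma. Of the 10 Sox genes outside the members, none passed in any of the 3 comparisons, and Sox7, Sox14, Sox15, Sox17 and Sox30 were near the lower limit on every array. At an unadjusted p under 0.05 there was 1, Sox18, in each comparison with unirradiated quiescent cells and 0 between activated and irradiated cells. The following genes were chosen after their values were seen. Sox12, the third SoxC gene, read 32, 452 and 546 in quiescent, 395, 548, 129 and 662 in irradiated and 788, 1274 and 548 in activated cells. Sox18, a SoxF factor of blood vessels, read 255, 220 and 5 in quiescent cells and at most 7 on the other arrays. The 2 quiescent arrays with Sox18, replicates 1 and 2, had a summed intensity of 9 endothelial markers of 790 and 1289, and quiescent replicate 4 one of 45. Irradiated arrays had 82 to 141 and activated arrays 98 to 617. The part of endothelial cells in the Sox18 values was not tested.

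Of 15 measured partner and cofactor genes of Sox proteins, 1 rose and 1 fell in activated cells in each of the 2 comparisons. Of all genes 2.89% rose and 3.12% fell against quiescent cells, and 3.4% and 3.68% against irradiated cells. Ctnnb1, which encodes beta-catenin, a protein that several Sox factors bind, rose from 4794 ± 836 in quiescent cells to 12176 ± 986 in activated cells (log2 difference 1.35 ± 0.18, adjusted p = 0.00527). That call was lost without the dimmest 50% of genes (0.0598) and with the replicate number as a block (0.0712). The size depended on the probe set, at 3.05 with the mean of the Ctnnb1 probe sets and 4.46 with the one of largest variance. Pou3f3, one of the POU factors that bind DNA beside Sox proteins, fell by 0.59 ± 0.11, and its call depended on the probe set, with an adjusted p of 0.891 for the mean of its probe sets. Leaving out single arrays ended the call against quiescent cells for quiescent replicates 2 and 4 and activated replicates 1 and 3 (highest adjusted p 0.0712), and against irradiated cells for all arrays but quiescent replicate 2 and activated replicate 2 (0.136). Chd7, a chromatin remodeller that works with Sox2 and is known to be needed for Sox4 and Sox11 expression in adult neurogenesis, is given though it did not pass and was chosen after its values were seen. It read 396, 85 and 29 in quiescent, 68, 98, 435 and 449 in irradiated and 1835, 1651 and 2841 in activated cells. The log2 difference from quiescent cells was 4.07 ± 0.98 (adjusted p = 0.0577), and it passed without quiescent replicate 1 (0.0335) and with the mean of its probe sets (0.0150).

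Of 23 measured genes described as Sox targets, 3 rose and 2 fell in activated over quiescent cells, and 6 were near the lower limit on every array. Of all genes 2.89% rose and 3.12% fell in this comparison. Tead2, a transcription factor gene that Sox4 and Sox11 activate, went from 5, 6 and 22 in quiescent cells to 311, 456 and 447 in activated cells, with 14, 6, 5 and 6 in irradiated cells. It rose by 4.00 ± 0.27 (adjusted p = 1.86e-04). Nes, the intermediate filament gene with a Sox2-dependent enhancer, rose by 2.98 ± 0.27. It read 11, 6 and 6 in quiescent, 7, 6, 10 and 6 in irradiated and 120, 283 and 143 in activated cells. From values this low the size depended on the pseudocount, at 4.35 with 1 and 1.72 with 64. Tubb3, a neuronal tubulin gene and SoxC target, rose by 5.19 ± 1.09. Leaving out any array but quiescent replicate 1 and irradiated replicate 3 ended that call (highest adjusted p 0.119). It was also lost at pseudocount 1 (0.0810), with irradiated arrays kept out of the fit (0.0808) and with the replicate number as a block (0.251). The 2 that fell were Hapln1, a matrix link protein gene that SoxE and SoxD factors drive in cartilage (-5.19 ± 0.38), and the myelin gene Mbp (-2.42 ± 0.51). Any array but activated replicates 1 and 2 ended the Mbp call when left out, and its adjusted p then reached 0.114. The Mbp call was also lost with irradiated arrays kept out of the fit (0.174) and with the replicate number as a block (0.166).

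Against irradiated cells 5 of these targets rose and 3 fell, beside 3.4% and 3.68% of all genes. Of the targets given here, Mbp, Dcx, Egfr and Ednrb were named after their values were seen. Tead2 (4.14 ± 0.25), Nes (3.01 ± 0.25), Tubb3 (5.94 ± 1.02), Dcx (4.16 ± 0.74) and Egfr (2.76 ± 0.60) were the ones that rose, and Hapln1 (-5.11 ± 0.36), Ednrb (-2.24 ± 0.40) and Mbp (-2.43 ± 0.48) those that fell. The Egfr call was lost without any array but quiescent replicates 2 and 4 and irradiated replicate 2 (highest adjusted p 0.112), and that of Mbp without any irradiated array or activated replicate 3 (0.0638). Tubb3 and Dcx, both SoxC targets, were lost without activated replicate 2 (0.0572 and 0.0573), Ednrb without the same array (0.0655), and Dcx also without activated replicate 1. With the replicate number as a block, Tubb3 (0.110), Dcx (0.0618), Egfr (0.186), Ednrb (0.0583) and Mbp (0.116) lost these calls. With quiescent arrays kept out of the fit, Egfr (0.0579), Ednrb (0.0535) and Mbp (0.0783) did. Tead2, Nes and Hapln1 kept theirs in every alternative. The median log2 difference of the 23 targets was 0 in both comparisons, as over all genes.

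The genes whose profile over the 10 arrays lay closest to that of a called member are given as a description. Other Sox genes and genes with Rik, Gm or LOC symbols were left out of this search. Likeness was the root mean square distance between log2 values centred on each gene's mean. Closest to Sox4 were Cdca5 (0.55), Arhgap11a (0.60) and Cdc20 (0.60), where the spread of Sox4 itself was 2.57 in the same unit. Closest to Sox11 were Snrpf (0.87), Lbr (0.90) and Fam107b (0.94), against a spread of 2.32. Closest to Sox8 were Fau (0.29), Rpl11 (0.32) and Rbm17 (0.38), against 0.88, and closest to Sox1 were Stmn1 (0.33), Klhl7 (0.37) and Eif4g2 (0.38), against 0.82. Stmn1, for instance, read 4283, 9131 and 7569 in quiescent, 5144, 3724, 3038 and 4262 in irradiated and 15780, 16570 and 15896 in activated cells, and like Sox1 it was lowest on an irradiated array and highest on the activated ones.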

How the data were processed

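Each deposited value is an intensity of 1 probe set on 1 Affymetrix MOE 430 2.0 array, given as a whole number on a linear scale. What the authors did between scan and intensity is not given in the sources used here. Per the labels' protocols, RNA was amplified with the NuGEN Ovation Pico kit before biotin labelling. The 75th percentiles of the arrays ran from 83 to 104, and no normalization was added. A gene took the values of whichever of its probe sets was brightest on average over the 10 arrays, as log2(intensity + 16). All arrays entered 1 limma fit (limma 3.58.1 in R 4.3.3, 7 residual degrees of freedom, eBayes, two-sided tests), with the p-values adjusted by Benjamini-Hochberg across every gene, or across every probe set. The fit was tested on simulated data. The members and lists were chosen with earlier results of these data known. Besides the members, the rule names up to 4 called partners and 4 called targets per comparison by adjusted p, any other Sox gene called, and the 3 nearest profiles of each called member. Alternatives changed the pseudocount (1 or 64), scaling, probe set choice, filter on dim features, moderation, array weights, groups in the fit and replicate block, and left out each array. Scan dates were not used here and batches were not tested.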

Additional observations from a re-analysis of the deposited data

Results flagged for a closer look

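In the irradiated group, the only one with 4 arrays, an array far from the other 3 was looked for on 41 probe sets of members and of the genes nearest to them. On 7 of them the gap between the highest array and the next exceeded the 95% critical value of Dixon's test. The gap was taken as a share of the group's range. Chance exceeds that value in about 1 in 20 groups of independent, normally spread values. That share cannot be applied here, because several groups held values near the lower limit and several probe sets belonged to the same gene. Cdca5 was among the 41 because its profile lay closest to that of Sox4. Irradiated replicate 4 was the high array on 5 of them: Sox4 on 1455867_at (67, the next array at 17, gap 0.877) and on 1419155_a_at (39 against 5, gap 0.952), Sox11 on 1436790_a_at (119 against 17, gap 0.916), Sox5 on 1459261_at (109 against 8, gap 0.925) and the cell division gene Cdca5 (52 against 5, gap 1). The Sox4 and Sox11 values of that array remained under those of every activated array on the same probe sets. Irradiated replicate 3 was high for Sox10 on 1424985_a_at (84 against 22, gap 0.947). Irradiated replicate 1 was high for Sox5 on 1432190_at (30 against 5, gap 1).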

How the results depend on the processing

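Of 630 values of the 10 members over 3 comparisons and 21 alternatives, 584 kept their direction and their side of the threshold, 17 lost the call, 14 gained it and 15 changed sign, all of the latter without a call. Between activated and quiescent cells the number of Sox genes called was 4 with the mean of the probe sets and with the probe set of largest variance, 5 without the dimmest 50% of genes (9096 tested), 1 with only the 2 groups in the fit, 1 with the replicate block, and 1 to 2 without each array. All genes called, 1094 in the main fit, also changed. They were 1426 with the mean of the probe sets and 1013 with the probe set of largest variance. Without the dimmest 50% they were 1465 of the 9096 tested. All genes called were 680 with only the 2 groups, 444 with the block and 773 to 1036 without each array. Sox probe sets called were 5 with the block and 9 to 12 without each array. Between irradiated and quiescent cells the 2 genes called became 4 at pseudocount 1, 1 with quantile normalization, with trend and robust moderation and with array weights, 0 with only the 2 groups and 0 with the block, and 0 to 44 without each array. Between activated and irradiated cells the block gave 675 genes and 8 Sox probe sets, and leaving out each array 922 to 1218 genes, 9 to 13 Sox probe sets and 1 to 3 Sox genes. With the mean of the probe sets the sign turned for Sox21 (-0.39, activated minus quiescent), Sox5 (0.11, irradiated minus quiescent) and Sox6 (0.56, activated minus irradiated). With the probe set of largest variance it turned for Sox21 (-1.39 in the first comparison and -0.75, irradiated minus quiescent), Sox6 (1.47, activated minus irradiated) and Pou3f3 (0.11, activated minus quiescent). Leaving out 1 array turned Sox6 (-0.24 to 1.09 in the first comparison, -0.17 to 1.15 irradiated minus quiescent, -0.48 to 0.36 activated minus irradiated), Sox5 (-1.52 to 0.054, activated minus irradiated), Sox9 (-0.53 to 0.028) and Sox11 (-1.64 to 0.13), the last 2 irradiated minus quiescent. Apart from what fewer tested genes or arrays bring about, the cause was not tested. The replicate numbers are only numbers here: deviations of same-numbered arrays correlated at -0.029 to 0.021 over 8 pairs, and 4 of 6 and 2 of 6 arrays correlated best with their own number in the comparisons with 3 pairs. With the block, Sox8 against quiescent cells (adjusted p = 0.159) and Sox11 against irradiated cells (0.128) lost their calls, as did Sox9 probe set 1424950_at in both comparisons (0.0755 and 0.0509), Sox4 probe sets 1419155_a_at and 1433575_at and Sox11 probe set 1429372_at against quiescent cells, Sox1 and Sox11 probe sets 1431225_at and 1453002_at against irradiated cells over all probe sets, and Sox11 probe set 1429051_s_at in both. The alternatives for genes outside the members were added after seeing the data. Signal over background limits the 4 Sox probe sets whose values never exceeded 10, where a difference cannot be read.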
